A study of Mus musculus with 16 samples.

Results

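The 27 genes described here serve inhibitory signalling in the brain. They were taken by name and comprise 11 subunits of the GABA-A receptor, 2 subunits of the GABA-B receptor, 3 KCTD proteins that bind GABA-B receptors, 5 genes of GABA synthesis, breakdown and transport, 3 glycine receptor subunits with the scaffold gephyrin, and 2 chloride cotransporters. Their m6A marks were read from 8 peak lists of mouse cortex, 2 from sham-operated mice (Sham) and 2 each from mice with a 2 h occlusion of the middle cerebral artery followed by 0, 6 or 24 h of reperfusion (MCAO/R), named here by the reperfusion time. The tissue was peri-infarct cortex of C57BL/6J males operated at 6 to 8 weeks of age. The study's methods give 6 mice per surgery group, and nothing states which mice entered which library or whether mice were pooled. In all, 269 of the 169564 listed peaks lay on exons of these genes.

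GABA is the main fast inhibitory transmitter of the cortex. It is made from glutamate by 2 decarboxylases (Gad1 and Gad2), loaded into vesicles by Slc32a1, and opens GABA-A receptors, which are chloride channels built from 5 subunits. The direction of the chloride current depends on cotransporters, of which Slc12a2 (NKCC1) brings chloride into the cell and Slc12a5 (KCC2) takes it out. GABA-B receptors act more slowly through G proteins, and their KCTD partners shape how fast that response starts and fades. N6-methyladenosine (m6A) is a mark set on adenosines of mRNA, mostly near stop codons and in long exons, and read by proteins that change the splicing, translation or decay of the transcript.

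In MeRIP-seq, fragmented RNA is pulled down with an m6A antibody, and a peak is a stretch where pulled-down reads exceed those of the input. Each list gives the span, the strand and a score of every peak, and no read counts. Library depth is therefore unknown, and a missing peak may be a methylated site below the calling limit or an RNA of low abundance. In these bulk samples, fewer cells of a type and less RNA per cell cannot be told apart, and neither can be told from less methylation in a list alone. The score has no stated scale and was used only as a rank, the percent of the peaks of the same list with a lower score. Peaks of different lists that shared an exonic base were joined into regions, numbered along the chromosome within each gene (GRCm39, GENCODE M39). Where a list held several peaks in a region, the region took the rank of the highest. The lists held 18775 to 24078 peaks. The study reports fewer confident peaks per sample than these lists hold, and nothing states how the sets relate. Of the marker genes of cortical excitatory neurons, Tbr1 and Neurod6 had a peak in all 8 lists and Slc17a7 and Camk2a in none. The 8 markers of GABAergic neurons were split. Lhx6 and Dlx1 had a peak in all 8 lists, Lamp5 in 2, Pvalb and Vip in 1 each, and Sst, Npy and Calb2 in none. All 4 markers of striatal neurons had a peak in some list, Drd1 in all 8, while the cerebellar markers Cbln3 and Barhl1 had none.

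Both 6 h lists stood apart from the other 6. Of 28 genes known from the hypothalamus, a set drawn up after the lists were seen, 14 and 15 had a peak in the 6 h lists, against 0 to 2 in each other list. Otp, Nkx2-1 and Isl1, transcription factors of developing and adult hypothalamic neurons, were marked in both 6 h lists and in no other. Other transcription factors of the set were not, since Rax, Hmx2, Hmx3 and Foxb1 had no peak in any list. Nr5a1 and Six6 had a peak in 6 h replicate 2 only, and Bsx in 6 h replicate 1 only. Of the hypothalamic peptide genes in the set, Hcrt, Agrp, Avp, Oxt, Trh and Ghrh had no peak in any list, Pmch had one in Sham replicate 2 and in 24 h replicate 2, and Pomc had one in 24 h replicate 2. The part of this difference in the 6 h results was not tested, and values are given with and without these libraries.

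The 27 genes had 32 and 30 peaks in the Sham lists, 36 and 31 at 0 h, 39 and 50 at 6 h, and 24 and 27 at 24 h. The means were 31.0 ± 1.41, 33.5 ± 3.54, 44.5 ± 7.78 and 25.5 ± 2.12 (SD, n = 2 each). Both 6 h lists lay above all others and both 24 h lists below. The genes with a peak numbered 12 and 14 in Sham, 15 and 13 at 0 h, 16 and 18 at 6 h, and 12 and 12 at 24 h. The peaks of these genes made up 0.160% ± 0.0152 of a list in Sham, 0.155% ± 0.0373 at 0 h, 0.196% ± 0.0282 at 6 h and 0.124% ± 0.00316 at 24 h (SD, n = 2 each), and on this measure 6 h replicate 1, with 0.176%, lay below 0 h replicate 1, with 0.182%. A comparison of 2 lists against 2 cannot reach p = 0.05 in an exact permutation test, so these counts carry no test. Over the 6 lists other than those of 6 h the mean was 30.0 ± 4.15 peaks (SD, n = 6).

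**Figure D1:**
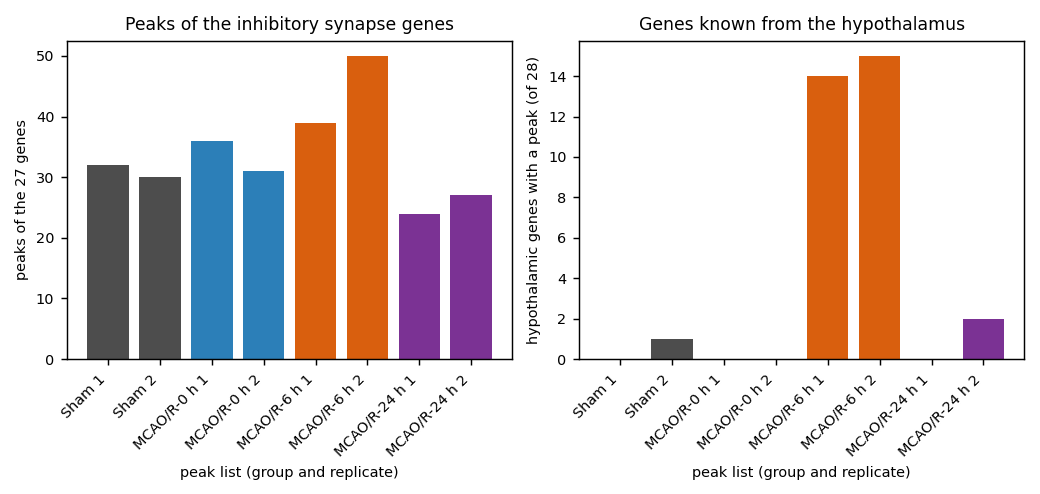
Bars give, for each of the 8 peak lists, the number of peaks in the 27 genes (left) and the number of 28 hypothalamic genes with a peak (right), and colours mark the 4 groups. The 6 h lists are highest in both panels, with 39 and 50 peaks and with 14 and 15 hypothalamic genes.

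A peak in at least 1 list was found in 22 of the 27 genes (81.5%), where 52.3% of 21474 protein-coding genes had one. That background counts every annotated protein-coding gene, whether or not it is expressed in cortex. In 9 of these 22 (40.9%) every list held a peak, beside 35.8% of the 11241 protein-coding genes with a peak. The 9 were the GABA-A subunits Gabra2, Gabra4, Gabra5, Gabrb1 and Gabrb2, all 3 KCTD genes (Kctd8, Kctd12 and Kctd16), and Slc12a2. Over the 22 genes the median of the highest rank in a gene was 63.5%, against 49.1% over all protein-coding genes with a peak. No list held a peak in Gabra6, a subunit known from cerebellar granule cells, in Gabrd, a subunit of receptors outside the synapse, in Slc6a11, a GABA transporter of astrocytes, in the glycine receptor subunit Glra2, or in Slc12a5. Without the 6 h libraries 19 of the genes had a peak, and 9 had one in every remaining list.

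**Figure D2:**
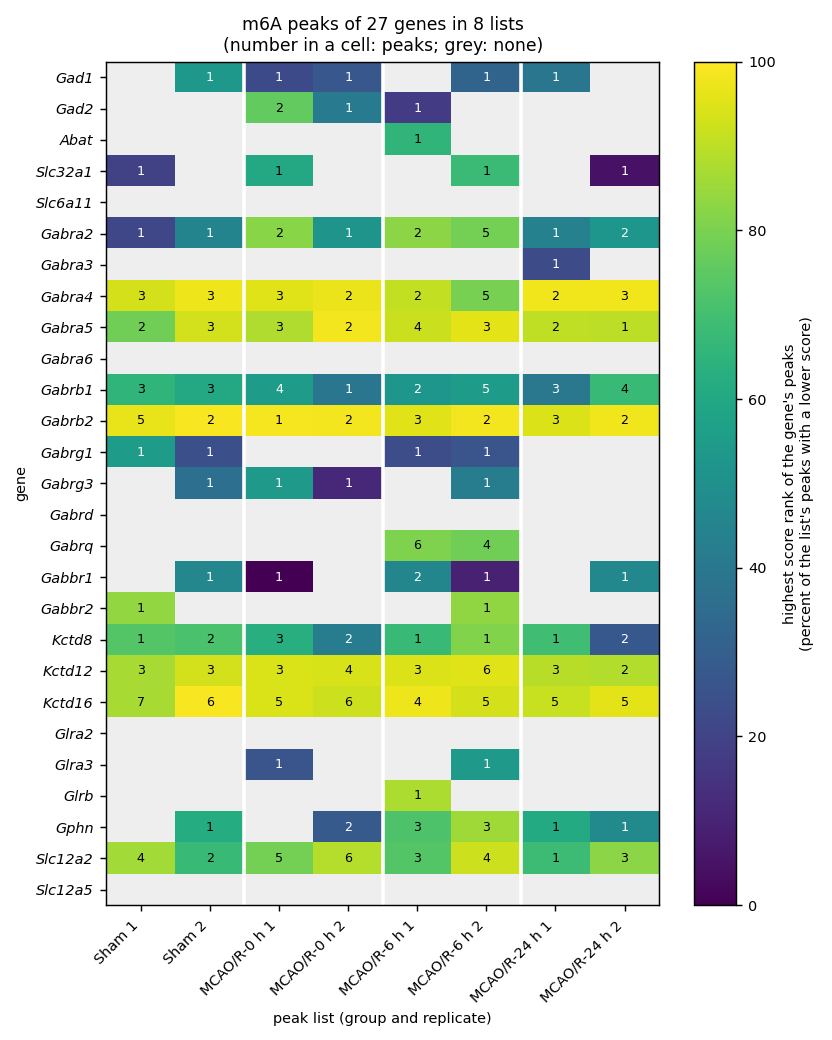
Rows are the 27 genes ordered by role and columns the 8 lists. The number in a cell counts the gene's peaks, its colour gives the highest score rank among them (percent of the list's peaks with a lower score), and grey marks no peak. Gabra4, Gabra5, Gabrb2, Kctd12 and Kctd16 are bright in all 8 columns, while Gabrq is filled in the 6 h columns alone.

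Of the 87 regions in these genes, 8 (9.20%) had a peak in all 8 lists, against 8.97% of all 52776 regions, and 45 (51.7%) were in 1 list only, against 52.6%. Sequences are printed below for regions on which the comparisons turn, 5′ to 3′ on the transcript strand. The first set shows the commonest m6A sequence context, GGACT in DNA letters, in capitals, with 12 or 13 bases on each side, at 2 of the 3 sites of Gabrb2 region 2, the region with the highest median rank, and in Gphn region 1, which was absent from Sham. The Gabrb2 sites shown, in the 3′ UTR at chr11:42517731-42517760 and chr11:42517771-42517800 on the plus strand, were covered by the peaks of all 8 lists, and their central A lay 29 and 69 nt past the start of the stop codon. The site not shown, at 475 nt, was covered by 5 lists. The Gphn site, in the 5′ UTR at chr12:78273302-78273331 on the plus strand, was covered by all 5 lists that held the region.
Gabrb2, site at 29 nt: cgtgagaagcaaGGACTggattcctcttca
Gabrb2, site at 69 nt: cagcctgatgtaGGACTtggaaaacacatc
Gphn, 5′ UTR site: ttcctcccggccGGACTcggggtcgcgcgg

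The second set shows coding stretches, with capitals for every run of A or G at 2 positions, then AC, then any base but G, the wider context in which m6A is set. The Kctd8 stretch (chr5:69267803-69267852, minus strand) is the part of region 1 covered by all 8 lists and held 1 such site and no GGACT. The Gabra4 stretch (chr5:71729067-71729141, minus strand) is the longest unbroken piece, 75 nt, of the 100 bases of region 2 that the most lists, 7 of 8, covered, and also held 1. Gabrq region 2 (150 of its bases, chrX:71881605-71881754, plus strand) was in the 6 h lists alone and held 1 in these bases. The Gabrb2 stretch is what the 6 lists with region 1 share, 100 nt spliced from neighbouring exons between 42484711 and 42488401 of chromosome 11, plus strand, and held 0.
Kctd8 region 1: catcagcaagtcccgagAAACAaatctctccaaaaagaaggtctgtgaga
Gabra4 region 2: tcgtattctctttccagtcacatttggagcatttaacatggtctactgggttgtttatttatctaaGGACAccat
Gabrq region 2: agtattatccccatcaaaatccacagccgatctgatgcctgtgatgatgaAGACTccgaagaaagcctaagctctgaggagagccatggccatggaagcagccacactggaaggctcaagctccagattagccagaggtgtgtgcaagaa
Gabrb2 region 1: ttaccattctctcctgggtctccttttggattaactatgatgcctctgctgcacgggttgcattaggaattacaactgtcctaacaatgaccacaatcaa

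Among the 11 GABA-A subunits 9 had a peak, with 122 peaks in 44 regions. Gabrb2, a beta subunit of the most common receptors of the forebrain, carried the region with the highest median rank over the 8 lists. Its region 2 (chr11:42517546-42518270, 3′ UTR in the last exon, with its middle 192 nt past the stop codon) ranked at 96.7% and 98.9% in Sham, 98.6% and 98.1% at 0 h, 95.5% and 98.2% at 6 h, and 94.6% and 97.9% at 24 h. Each time overlapped Sham, while both 0 h ranks lay above both 24 h ranks. The share of all regions with such an order was not computed, so the order is given as values only. The 8 lists shared 325 nt of this region.

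Gabra4, an alpha subunit found mostly in receptors outside the synapse, was marked on both sides of its stop codon. Region 2 (chr5:71728917-71729491, the end of the coding sequence) ranked at 92.5% and 97.6% in Sham, 95.2% and 78.6% at 0 h, 90.9% and 65.6% at 6 h, and 97.8% and 97.7% at 24 h. Both 24 h ranks lay above all others of this region and both 6 h ranks below both Sham ranks. How many of all regions show such orders was not computed, so they are given as values only. No single base of it was covered in all 8 lists, so it is a chain of overlapping peaks rather than 1 site. Region 1, in the 3′ UTR, was in 7 lists at ranks of 79.4% to 97.2% and missing from Sham replicate 2. It was likewise a chain, with no base shared by all the lists that held it. The same held for Gabra2 region 3, Gabra5 region 3, Kctd12 region 8, Kctd16 region 1 and Slc12a2 region 3.

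Gabra5, the alpha subunit of extrasynaptic receptors of hippocampus and deep cortex, had region 2 in all 8 lists (chr7:57057570-57058494, 3′ UTR, middle 81 nt past the stop codon). It ranked at 78.3% and 93.4% in Sham, 87.7% and 98.2% at 0 h, 91.9% and 92.8% at 6 h, and 90.4% and 89.9% at 24 h, with overlap between Sham and each time. Region 3, in the coding sequence, was in 7 lists at 76.1% to 95.8%, but it overlaps exons of Gm9962 on the other strand. Since nothing states whether the libraries keep strand, reads of such a pair cannot be told apart.

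Gabra2 and Gabrb1 had a peak in every list without any region common to all 8. The most frequent region of Gabra2 (region 3, 3′ UTR) was in 7 lists at 43.8% to 69.1%. Gabrb1, with a last exon of 12573 nt, had 12 regions, of which 7 were in 1 list only, and its highest rank in any list was 67.6%. Gabrg1, Gabrg3 and Gabra3 had 4, 4 and 1 peaks, at ranks of 11.5% to 54.9%.

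Gabrq, the theta subunit, is known mainly from hypothalamus and monoamine nuclei. It had 6 and 4 peaks in the 6 h lists and none in the other 6. Its region 2 (coding sequence) ranked at 80.6% and 78.4%, region 3 (3′ UTR, 231 nt past the stop codon) at 64.5% and 75.9%, and region 4 (3′ UTR, 2769 nt past it) at 50.2% and 73.3%. Of the 11241 protein-coding genes with a peak, 106 (0.943%) were likewise marked in both 6 h lists and in no other list, against 32 for Sham, 51 for 0 h and 63 for 24 h. Gabre, which encodes the epsilon subunit, had 2 and 2 peaks in the same lists and none elsewhere. The 14 and 15 marked hypothalamic genes were in these same lists, and their part in the Gabrq result was not tested.

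The 3 KCTD genes held 83 peaks, more than any other role but the GABA-A subunits, and 4 of the 8 regions found in every list. Kctd12 region 7 (chr14:103218192-103219091, 3′ UTR, middle 360 nt past the stop codon) ranked at 87.1% and 93.2% in Sham, 94.2% and 93.9% at 0 h, 94.6% and 95.3% at 6 h, and 89.4% and 88.7% at 24 h. The ranks of both 0 h and both 6 h lists lay above those of both Sham lists, while those of 24 h lay between them. The share of all regions with such an order was not computed, so the order is given as values only. Kctd12 is a single-exon transcript of 6057 nt.

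Kctd8 region 1 (chr5:69267703-69268052, coding sequence, middle at -179 nt from the stop codon) had the lowest median rank of the 8 shared regions, with 73.1% and 71.2% in Sham, 62.7% and 42.4% at 0 h, 68.0% and 81.0% at 6 h, and 69.3% and 27.4% at 24 h. The lists of 0 h and 24 h lay below both Sham lists, but their replicates were further apart than either group was from Sham at its nearest list. The share of all regions ordered in this way was not computed.

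Kctd16 had 2 regions in all 8 lists. Region 2, in the 5′ UTR, ranked at 87.0% and 99.0% in Sham, 94.3% and 89.7% at 0 h, 97.4% and 93.6% at 6 h, and 86.4% and 95.8% at 24 h. It overlaps exons of Gm31087 on the other strand. Region 7, at the stop codon, ranked at 74.3% and 79.4% in Sham, 89.6% and 92.3% at 0 h, 89.2% and 92.0% at 6 h, and 91.6% and 94.96% at 24 h. All 6 MCAO/R ranks of region 7 thus lay above both Sham ranks, which held for 1 of the 8 shared regions of these genes and for 6.84% of the 4735 regions with a peak in every list. The opposite order, all 6 below both Sham ranks, held for 0 of the 8 and for 2.43% of all.

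The 2 GABA-B receptor subunits, which form the receptor as a pair, had 8 peaks in 3 regions. Gabbr1 had 6 peaks in 5 lists, with region 1 in 4 lists at ranks of 0.0101% to 46.8%. Gabbr2 had 1 region in its 3′ UTR, at 83.9% in Sham replicate 1 and 83.4% in 6 h replicate 2.

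Of the chloride cotransporters, Slc12a2 had 28 peaks in 5 regions and Slc12a5 none in any list. Slc12a2 region 5 (last exon, 3′ UTR, middle 171 nt past the stop codon) ranked at 85.9% and 68.0% in Sham, 79.1% and 88.8% at 0 h, 73.3% and 92.6% at 6 h, and 68.7% and 82.7% at 24 h, and all groups overlapped. Region 3, in the coding sequence, was in 6 lists at 10.9% to 88.4%. A gene without a peak is not shown to lack m6A, since its depth is unknown.

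The genes of GABA synthesis, breakdown and transport had 14 peaks, none of them in a region of more than 5 lists. Gad1 had 1 peak in each of 5 lists, at ranks of 22.5% to 53.4%. All 5 start at the first base of a short upstream exon used by another transcript, so their exonic extent and their distance to the stop codon are uncertain and are not given. Gad2 region 2, in the 3′ UTR, ranked at 75.9% and 41.7% at 0 h and at 17.4% in 6 h replicate 1, and was in no other list. Slc32a1, the vesicular transporter, had single peaks in 4 lists at 4.97% to 68.1%, the lowest in a region that overlaps Gm14204 on the other strand, and Abat, which breaks GABA down, had 1 peak, in 6 h replicate 1.

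The glycine receptor subunits and gephyrin had 14 peaks. Gphn, the scaffold that holds GABA-A and glycine receptors at the synapse, accounted for 11. Its region 1 (chr12:78273153-78273477, 5′ UTR) was in neither Sham list, in 0 h replicate 2 at 28.3%, at 6 h at 72.2% and 64.7%, and at 24 h at 61.1% and 47.8%. It overlaps exons of Gm48226 on the other strand. Glrb, the beta subunit that binds gephyrin, had 1 peak, at 87.7% in 6 h replicate 1, and Glra3 had 1 each in 0 h replicate 1 and 6 h replicate 2.

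**Figure D3:**
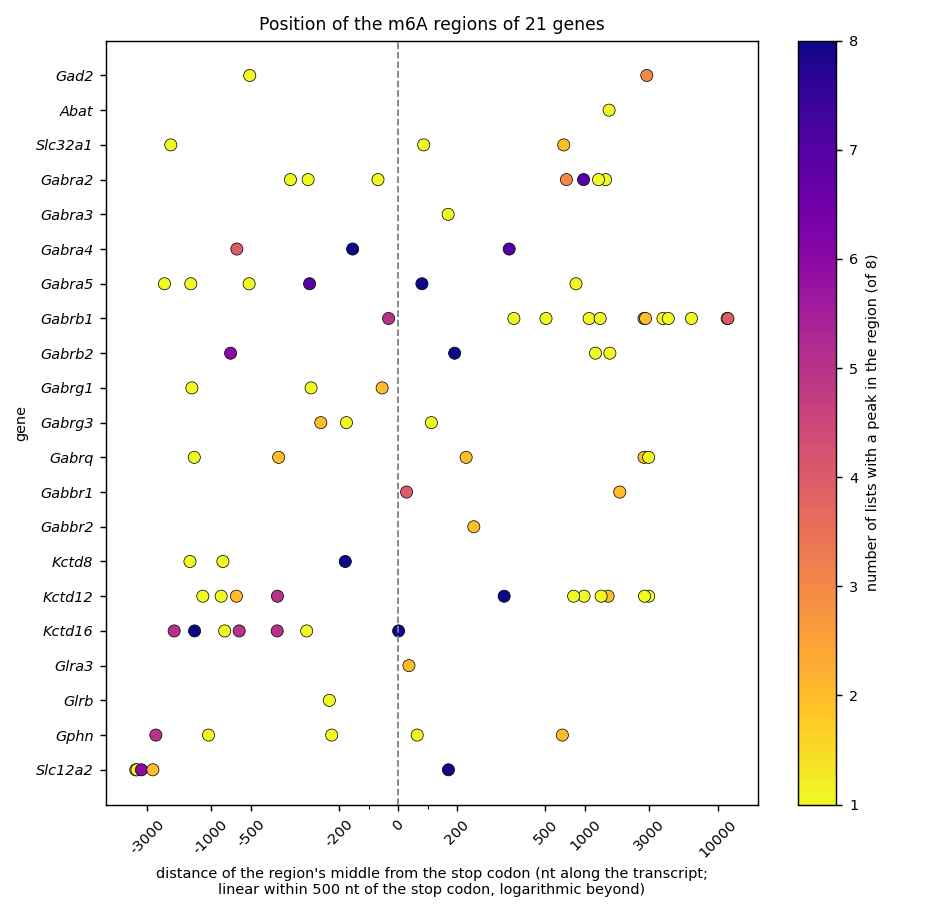
Each point is 1 region of the 21 genes with a placed peak (Gad1 left out), with the distance of its middle from the stop codon along the transcript in nt (linear within 500 nt, logarithmic beyond) and, as colour, the number of lists that held it. Of the 8 regions in all 8 lists, 6 lie within 200 nt of the stop codon.

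By the middle of the exonic part, 46.6% ± 7.22 of the peaks of these genes lay in 3′ UTRs, 41.9% ± 4.31 in coding sequence and 11.5% ± 5.91 in 5′ UTRs (SD, n = 8 lists). Over all protein-coding genes the shares were 36.1% ± 1.37, 58.4% ± 1.45 and 5.53% ± 0.379 (SD, n = 8). Within 200 nt of the stop codon lay 27.5% ± 5.65 of the peak middles, against 20.6% ± 0.358 over all genes (SD, n = 8). The 5′ UTR share of the set includes the 5 Gad1 peaks. By group the share near the stop codon was 32.4% ± 6.04 in Sham, 24.0% ± 2.53 at 0 h, 24.4% ± 9.03 at 6 h and 29.4% ± 0.327 at 24 h (SD, n = 2 each). Both 0 h lists lay below both Sham lists, while the lists of the other times overlapped those of Sham. Over all genes the mean share was 20.6% in Sham, 20.7% at 0 h, 20.1% at 6 h and 20.9% at 24 h. The shares of the set rest on 24 to 50 peaks per list, and their order was not tested.

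The 8 regions present in every list were compared with all 4449 such regions of protein-coding genes. In these genes 7 of 8 lay in the last exon (87.5% against 70.4%), 6 of 8 within 200 nt of the stop codon (75.0% against 26.95%), and the median of their ranks was 92.4% against 83.1%. The median length of the exon was 2003 nt, against 2660 nt. In windows of 201 nt around the middle of each region, read on the transcript strand, GGACT was found in 1 of 8 (12.5%), against 29.7% of the 4449, and the shorter GGAC, which it contains, in 3 of 8 (37.5%) against 65.6%. The wider context shown in capitals in the coding stretches, which includes GGACT, was in 7 of 8 (87.5%) against 98.5%. The window without it was that of Gabrb2 region 2, whose 3 GGACT sites all lie outside the window.

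The comparison of each reperfusion time with Sham asked which regions appear or disappear after ischemia. Gained regions are those held by both lists of a time but by neither Sham list, and lost regions are the opposite. At 0 h 1 of 57 regions was gained (background 3.84%), Gad2 region 2, and 1 was lost (background 1.87%). The lost region was Gabrb2 region 1 in the coding sequence (chr11:42484686-42488451), which ranked at 86.9% and 88.0% in Sham, 81.7% and 76.7% at 6 h, and 89.3% and 92.6% at 24 h, and had no peak in either 0 h list. With 1 library left out of the comparison, gained regions numbered 3 without either Sham replicate, 6 without 0 h replicate 1, 11 without 0 h replicate 2 and, through the joining of peaks, 2 without 6 h replicate 2. Lost regions then numbered 8 without Sham replicate 1, 10 without Sham replicate 2 and 2 without 0 h replicate 1. Without the 6 h libraries 2 regions were gained and 1 lost.

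At 6 h 7 of 72 regions were gained (9.72%), against 4.94% of all 36611 regions, and 0 were lost, against 2.03%. Gabrq regions 2, 3 and 4 made up 3 of the 7. The other 4 were Gphn region 1, Gabrb1 region 1 close to the stop codon (38.2% and 49.7%), Gabra2 region 4 in the 3′ UTR (82.6% and 79.0%) and Gabbr1 region 2 in the 3′ UTR (19.8% and 9.33%). Of these, 3 also had a peak in 0 h or 24 h lists, and Gabbr1 region 2 did not. Without 6 h replicate 1 the gained regions numbered 24 and without replicate 2 they numbered 17, and lost regions numbered 5 without Sham replicate 1, 9 without Sham replicate 2 and 1 without 6 h replicate 1. This whole comparison rests on the libraries with the hypothalamic marks, so it has no value without them.

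At 24 h 2 of 50 regions were gained (4.00%), against 3.79% of all regions, and 1 was lost, against 2.76%. The gained regions were Gphn region 1 and Gabrb1 region 1, the latter at 39.96% and 67.6%, and both were also gained at 6 h with the same Sham lists as reference. Gabrb1 region 1 was further listed in 0 h replicate 1 at 55.3%. The lost region, Kctd16 region 1 in the 5′ UTR, ranked at 22.6% and 0.715% in Sham and was listed at 60.9% and 45.6% at 0 h and at 61.3% in 6 h replicate 2. It overlaps Gm31087 on the other strand, and no base of it was shared by all 5 lists that held it. Gained regions numbered 6 without either 24 h replicate. Lost regions numbered 10 without Sham replicate 1, 13 without Sham replicate 2, 2 without either 24 h replicate, 2 without 0 h replicate 2 and 0 without 6 h replicate 2, the last pair through the joining of peaks. Without both 6 h libraries 2 were gained and 0 lost. With the higher-scoring 50% of each list 0 were gained and 0 lost, and with lists of equal length 0 were lost.

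**Figure D4:**
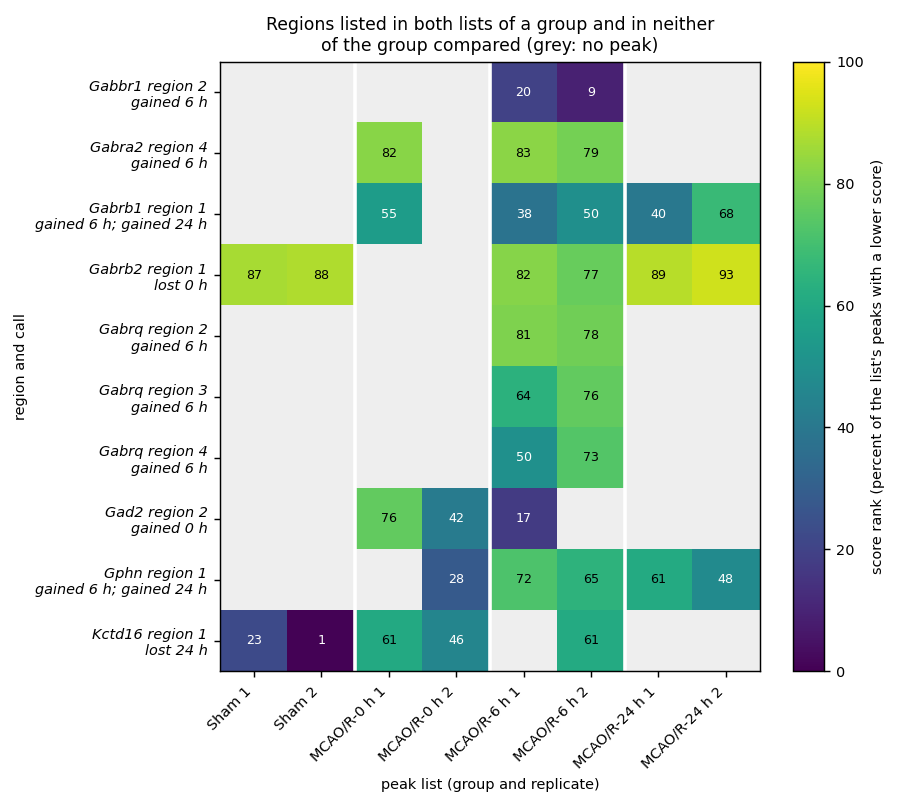
Rows are the 10 regions called gained or lost at any time and columns the 8 lists. Colour and number give the score rank (percent of the list's peaks with a lower score) and grey marks no peak. The 3 Gabrq rows are filled at 6 h alone, and Gabrb2 region 1 is missing from 0 h alone.

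Whether the ranks of regions present in all lists moved was tested with limma on normal scores of the rank, over all 4735 such regions and with Benjamini-Hochberg adjustment. It called 0 regions at an adjusted p of 0.05 in each comparison with Sham (background 0%), with 303 regions at an unadjusted p under 0.05 at 0 h, 448 at 6 h and 393 at 24 h. The 8 regions of these genes are therefore given as values. Kctd16 region 7 had the smallest p of the 8 in each comparison. Its difference from Sham in normal scores was 0.60 ± 0.25 (SE) at 0 h (limma adjusted p = 0.739), 0.58 ± 0.25 at 6 h (adjusted p = 0.515) and 0.77 ± 0.25 at 24 h (adjusted p = 0.523), with the same 2 Sham lists in all 3. These values did not pass the correction. The order of region 7, with all 6 MCAO/R lists above both Sham lists, was found in 6.84% of all 4735 regions.

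The next smallest p at 0 h were those of Gabra5 region 2, with a difference of 0.49 ± 0.34 (SE, limma adjusted p = 0.884), and Gabra4 region 2, with -0.48 ± 0.37 (adjusted p = 0.894). At 6 h Gabra4 region 2 followed, with -0.84 ± 0.37 (limma adjusted p = 0.519), and then Kctd12 region 7, with 0.33 ± 0.24 (adjusted p = 0.694). At 24 h Kctd8 region 1 had -0.64 ± 0.445 (limma adjusted p = 0.708) and Gabrb2 region 2 had -0.23 ± 0.25 (adjusted p = 0.818). Between the times, the smallest p of the set was that of Gabra4 region 2, higher at 24 h than at 6 h by 1.14 ± 0.37 normal scores (limma adjusted p = 0.626). Peaks of this region covered 175 nt in each 6 h list and 475 nt in each 24 h list, and no base was covered in all 8 lists. The ranks compared may therefore be those of different peaks. The standard errors of the 8 regions span 0.24 to 0.445 normal scores, so that moderate shifts in rank could not be detected with 2 lists per group. Without 24 h replicate 2, limma called 2 of all regions at 24 h against Sham.

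**Figure D5:**
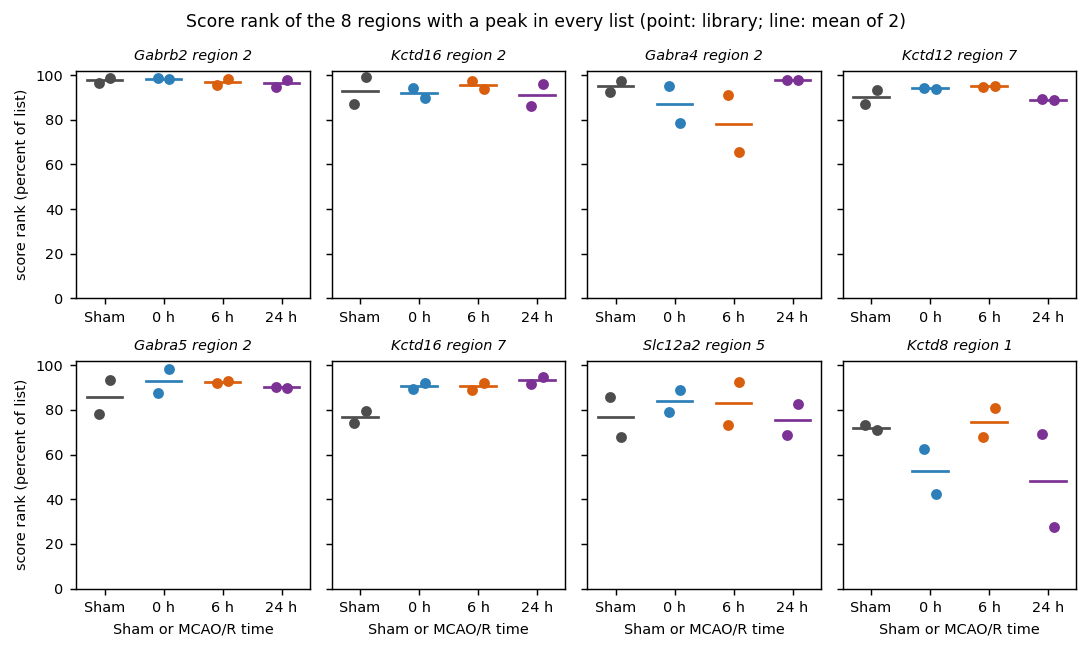
Each panel is 1 of the 8 regions present in every list, ordered by median rank. Points give the score rank in the 2 libraries of a group (percent of the list's peaks with a lower score) and lines their mean. In Kctd16 region 7 the 6 MCAO/R points, from 89.2% to 94.96%, lie above both Sham points, at 74.3% and 79.4%. This order was found in 6.84% of all regions with a peak in every list.

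Of 33 further genes of inhibitory signalling and chloride balance, 28 had a peak and 12 had one in all 8 lists. Those 12 included the kinases Wnk1, Wnk3 and Oxsr1, which act on SLC12 cotransporters, the chloride transporter Clcn3, the receptor partners Lhfpl4 and Shisa7, the inhibitory postsynaptic proteins Insyn1 and Insyn2a, the trafficking proteins Trak1 and Trak2, the scaffold Mpdz and the glutamine transporter Slc38a1. Of the 28 with a peak, 4 (14.3%) had a gained region at any time, against 22.8% of the protein-coding genes with a peak, namely Wnk2 and Insyn1 at 0 h, Gabre at 6 h and Insyn2a at 24 h. A lost region was also found in 4 (14.3%), against 11.1%, namely Wnk3 (0 h), Wnk4 (0 h and 24 h), Lhfpl4 (24 h) and Mpdz (0 h and 6 h). By the same count 6 of the 22 genes with a peak described above had a gained region (27.3%) and 2 a lost one (9.09%). Per list 17 to 20 of the 33 were marked, with 19 and 18 at 6 h beside 18 and 20 in Sham, where the 27 genes had 16 and 18 beside 12 and 14.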

How the data were processed

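Trim Galore, HISAT2 (genome GRCm39) and SAMtools were used by the authors to trim, align and filter reads, and they called peaks with exomePeak2 against the input libraries. The deposited lists hold 1 score per peak, on a scale the sources used here do not define. Whether libraries kept strand is not given in the sources used here. The 8 input libraries were not analysed here. Depth is unknown, so no counting interval is given.

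Peaks were assigned to the GENCODE M39 gene with the most exonic overlap on their strand, rebuilt to exons and joined by at least 1 shared exonic base. These steps were tested on simulated data with a single peak position per gene, so neighbouring or chained peaks were not tried. The limma fit was also tested on simulated data. Python 3.11.15, R 4.3.3 and limma 3.58.1 were used. Ranks were converted to normal scores and fitted with limma (trend) over all regions with a peak in every list, with group means only and an adjusted p threshold of 0.05.

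The replicate numbers were not treated as pairs in the main fit. Correlations of same-numbered deviations were 0.0406 to 0.0841, all positive and below 0.1. The genes and lists were chosen with earlier results of these data known. Every gene was accounted for, and values were given for regions in all 8 lists, regions gained or lost, the 3 smallest p of each comparison and the 5 highest median ranks. The alternatives were a stricter score limit, equal list lengths, other rules for assigning, joining and placing peaks, and leaving out libraries. The hypothalamic genes, the wider motif and leaving out both 6 h libraries were choices made after seeing the data. Another 3 peaks lay in a non-coding gene that shares the symbol Kctd16 and were left out. Where nothing says that libraries came from separate mice, p-values measure the spread between libraries, which may be technical.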

Additional observations from a re-analysis of the deposited data

How the results depend on the processing

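The count of genes with a peak in all 8 lists stayed at 9 whichever library was left out, and the regions in all lists numbered 8 to 9. Genes with any peak numbered 20 to 22 and peaks per list 31.3 to 35.0 in the same settings. Leaving out 1 library gave 1 to 11 gained regions at 0 h, 7 to 24 at 6 h and 2 to 6 at 24 h, and 1 to 10, 0 to 9 and 0 to 13 lost regions, since 1 list then stands for a group. With the higher-scoring 50% of each list there were 22.25 peaks per list, 2 gained regions at 0 h, and 0 gained and 0 lost at 24 h. With every list cut to its 18775 highest-scoring peaks 0 were lost at 24 h. This cut removes the peak of Kctd16 region 1 from Sham replicate 2, a list of 20152 peaks, where it ranked at 0.715%. With at least 50% of the shorter peak shared 2 were gained at 0 h and 2 lost at 24 h, and the cause was not tested. Without both 6 h libraries, an alternative chosen after seeing the data, 2 were gained at 0 h and 0 lost at 24 h, through the joining of peaks, the one step of these comparisons that reads the 6 h lists. A window of 400 nt around the stop codon held 46.8% of the peak middles, and GGAC in place of GGACT was in 37.5% of the shared regions, both by construction. With the replicate number as a block limma called 0 regions in each comparison, as with log2 scores, with regions in both lists of both groups and with equal list sizes, while leaving out 1 library gave 0 to 2 at 24 h and 0 in the others. The single regions named with a limma value against Sham kept the direction of that difference in all 114 values under other settings. Many of these could not change it. The replicate block, regions in both lists of both groups, and leaving out libraries of other groups return the same difference by construction. Where it could change, it shrank to 0.019 for Gabra5 region 2 at 0 h without 0 h replicate 2. For Gabrb2 region 2 at 24 h it shrank to -0.012 without Sham replicate 2. The difference of Gabra4 region 2 between 24 h and 6 h was not recomputed. Presence in a list depends on the calling limit and on RNA abundance, and depth limits both in a way these lists do not show.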
